A study of Mus musculus with 2 samples.

Results

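The genes described here encode the proteins of the mitochondrial ribosome. They were taken as all genes whose symbol in the platform annotation begins with Mrpl (large subunit) or Mrps (small subunit) followed by a number, on probe sets that name 1 gene. There are 75 of them among 19503 named genes of the table, 47 Mrpl and 28 Mrps genes, measured by 81 probe sets. All 75 carry the same symbol in RefSeq and are listed there as protein-coding. The pattern also matches 3 further protein-coding RefSeq genes, Mrpl33, Mrpl53 and Mrps6, which are not analysed here.

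RNA came from pooled cerebella of mice at postnatal day 7 that carry the transgene Tg(Pcp2-L10a-Egfp), in which the Pcp2 promoter drives a green fluorescent fusion of the cytosolic ribosomal protein L10a in Purkinje cells. The TRAP sample is the RNA on tagged ribosomes pulled down with antibodies against the fluorescent protein (translating ribosome affinity purification), and the unbound sample is the RNA that the beads left in the lysate. Both come from transgenic animals. How many were pooled is not given in the sources used here. A single array was run per fraction, so there is no replicate, no error and no test, and every statement describes these 2 arrays.

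The mitochondrial ribosome translates the few proteins encoded by mitochondrial DNA, all of them subunits of the respiratory chain and ATP synthase. Its ribosomal RNAs are transcribed in the organelle, but its proteins are encoded in the nucleus, made on cytosolic ribosomes and imported. Some descend from bacterial ribosomal proteins and others are found only in mitochondria. Mature Purkinje cells are large neurons that fire continuously and have a high demand for mitochondrial ATP. The samples here are from postnatal day 7.

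The purification can be read from marker genes. Pcp2, the Purkinje gene behind the transgene's promoter, read 12.98 in TRAP and 11.65 in unbound on the log2 scale, and Rpl10a, the gene of the tagged protein, read 12.67 and 12.13. All 6 measured Purkinje markers were higher in TRAP, with a median difference of 1.66. None of the 24 markers of other cells was higher in TRAP. The medians were -2.60 for the granule cell lineage (6 genes), -2.53 for astrocytes and Bergmann glia (6), -2.18 for oligodendrocytes (4), -2.68 for interneurons (3) and -2.73 for dividing cells (5). Their median log2 levels in TRAP, between 6.93 for oligodendrocytes and 8.09 for granule cells, were near or above the median of the TRAP array (6.92), and the part of RNA from other cells in the results below was not tested. The unbound sample mixes many cell types, and TRAP takes RNA on ribosomes only. A larger share of Purkinje cells in TRAP, more RNA of a gene per cell and more of that RNA on ribosomes therefore cannot be told apart.

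Some promoters of members are printed here as examples, upstream bases only. They are read 5′ to 3′ along the gene and end just before its start in the RefSeq promoter table. Capitals mark matches to an ETS factor core (CCGGAAG), to the nuclear respiratory factor motif NRF1 (GCGC and again GCGC after any 2 bases) or to a YY1 motif (AANATGGC), on either strand. Mrpl42, Mrps12, Mrps11, Mrps18a and Mrpl12 are a choice among genes with large differences. Mrpl47 and Mrpl51 are shown as the 2 genes that were lower in TRAP and also hold matches. Mrps16 and Mrpl23, with larger differences than Mrpl12, are among those not printed, and Mrpl23 has no match to these motifs. The stretches of Mrps12 and Mrps11 stop where a divergent gene begins. Those of Mrpl42, Mrps12 and Mrps11 show no capitals, but each of these genes has a YY1 match elsewhere in the full promoter window used for the counts below, and Mrps12 an ETS core match as well, so none of the 3 is counted as free of motifs.
Mrpl42, GRCm38.p6 chr10:95501950-95502199, minus strand: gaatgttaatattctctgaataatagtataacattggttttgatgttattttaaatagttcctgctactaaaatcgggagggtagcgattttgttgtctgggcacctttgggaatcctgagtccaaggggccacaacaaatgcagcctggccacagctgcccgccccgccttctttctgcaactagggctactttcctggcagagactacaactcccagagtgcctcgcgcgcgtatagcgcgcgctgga
Mrps12 (between its start and that of Sars2), GRCm38.p6 chr7:28741822-28741967, minus strand: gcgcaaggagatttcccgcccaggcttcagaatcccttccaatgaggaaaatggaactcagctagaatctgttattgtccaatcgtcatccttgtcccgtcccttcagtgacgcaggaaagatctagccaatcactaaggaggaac
Mrps11 (between its start and that of Mrpl46), GRCm38.p6 chr7:78783090-78783130, plus strand: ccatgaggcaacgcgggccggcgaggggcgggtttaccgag
Mrps18a, GRCm38.p6 chr17:46110754-46111003, plus strand: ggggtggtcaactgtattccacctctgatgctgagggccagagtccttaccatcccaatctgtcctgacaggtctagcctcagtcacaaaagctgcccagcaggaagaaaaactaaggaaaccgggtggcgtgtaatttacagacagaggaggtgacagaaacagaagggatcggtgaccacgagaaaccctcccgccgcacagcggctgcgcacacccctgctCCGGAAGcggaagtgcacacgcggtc
Mrpl12, GRCm38.p6 chr11:120484387-120484636, plus strand: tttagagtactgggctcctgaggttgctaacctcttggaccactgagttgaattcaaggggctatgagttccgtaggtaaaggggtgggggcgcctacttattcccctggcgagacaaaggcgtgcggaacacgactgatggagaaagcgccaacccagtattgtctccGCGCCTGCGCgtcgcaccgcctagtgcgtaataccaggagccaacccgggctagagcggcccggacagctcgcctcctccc
Mrpl47, GRCm38.p6 chr3:32736756-32737005, minus strand: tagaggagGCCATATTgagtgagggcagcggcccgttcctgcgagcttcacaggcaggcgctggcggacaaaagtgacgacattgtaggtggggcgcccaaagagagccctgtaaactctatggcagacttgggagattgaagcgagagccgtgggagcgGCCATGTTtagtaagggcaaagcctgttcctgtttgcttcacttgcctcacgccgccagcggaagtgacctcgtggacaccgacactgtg
Mrpl51, GRCm38.p6 chr6:125191950-125192199, plus strand: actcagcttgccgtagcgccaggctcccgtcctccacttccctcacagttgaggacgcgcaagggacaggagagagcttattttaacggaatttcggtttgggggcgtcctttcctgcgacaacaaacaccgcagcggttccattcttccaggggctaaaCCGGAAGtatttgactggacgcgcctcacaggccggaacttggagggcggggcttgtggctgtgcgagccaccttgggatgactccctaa

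As a family, the genes were higher in the TRAP fraction. Of the 75 members, 73 had a higher value in TRAP than in unbound, a share of 97.3%, where 57.6% of all named genes did. The median difference (TRAP minus unbound, log2) was 0.86, a 1.81-fold difference, against 0.10 over all named genes. At least 2-fold higher in TRAP were 30 members (40.0%), compared with 4.58% of all named genes. None reached 2-fold in favour of unbound, where 11.0% of all named genes did. At 1.5-fold, 54 members were higher in TRAP, compared with 12.5% of all named genes. The difference of 51 members lay above the 90th percentile of all named genes.

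These counts leave out no member for its level. The median over all probe sets of both arrays was 7.08, exceeded by 75 members in TRAP and by 73 in unbound. The exceptions were Mrpl22, with 7.62 in TRAP and 6.85 in unbound, and Mrpl41, with 8.07 and 7.07. Over the 10524 genes above that level on either array, 44.1% had a higher value in TRAP and 8.11% were past 2-fold.

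**Figure D1:**
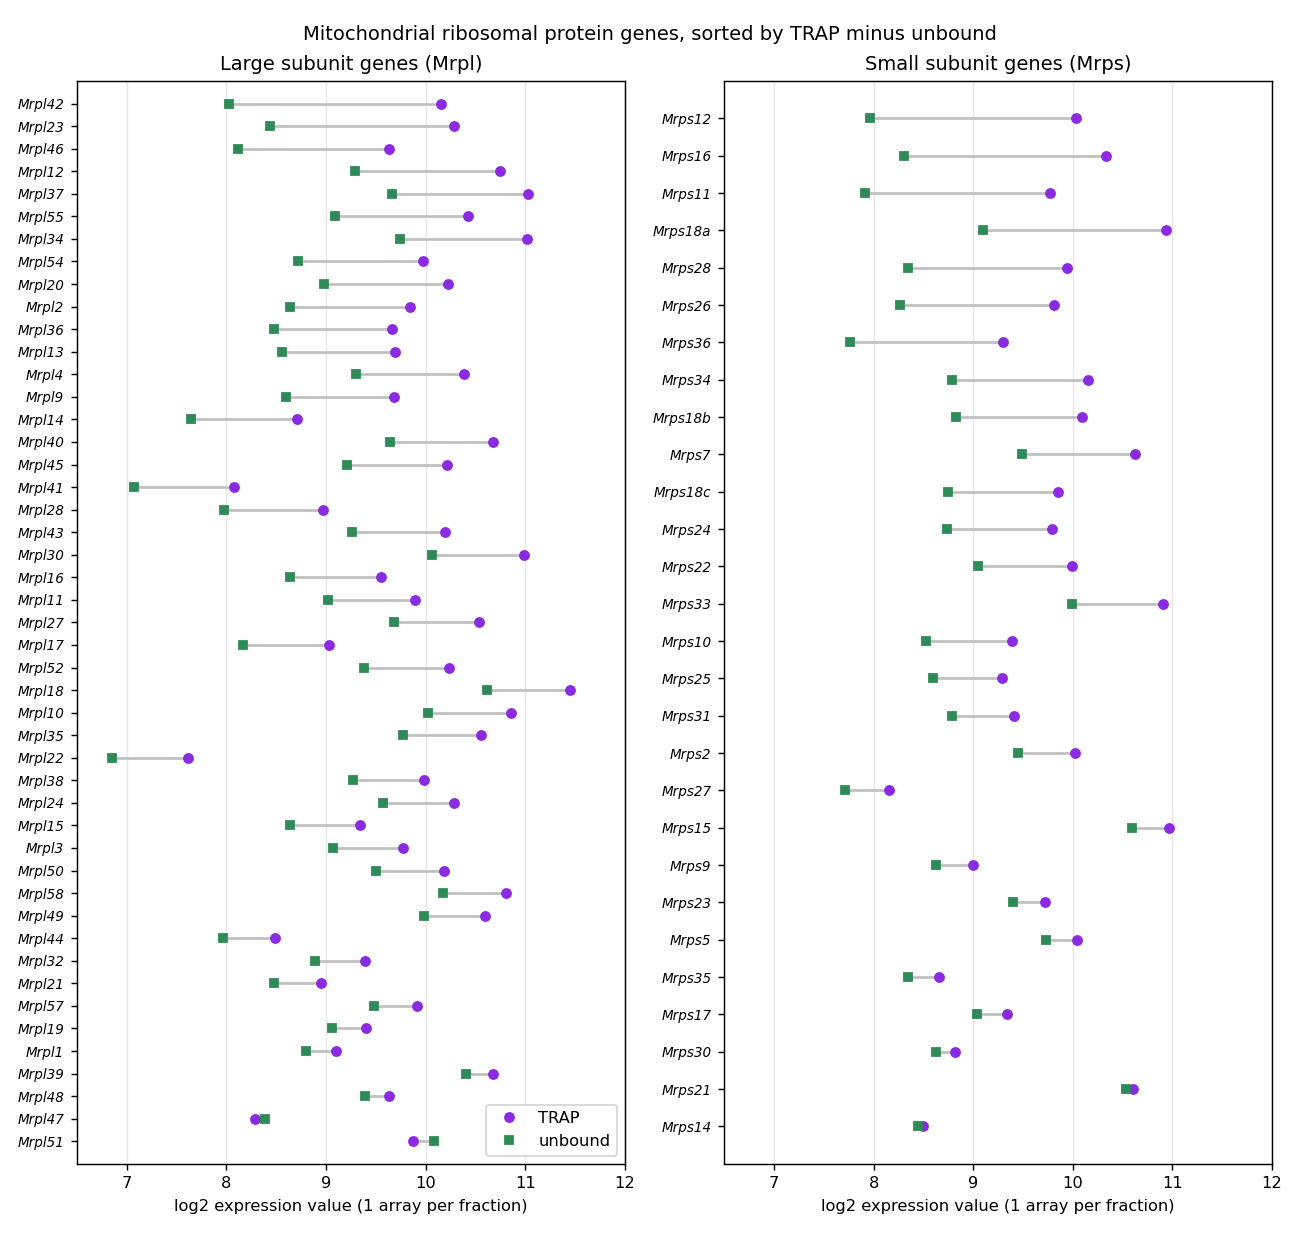
Log2 expression of each of the 75 genes on the TRAP array (circles) and the unbound array (squares), large subunit left and small subunit right, sorted by the difference. The circle lies to the right of the square for 73 genes, and the order reverses for Mrpl47 and Mrpl51 at the foot of the left panel.

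The subunits had near-equal medians. The 47 Mrpl genes had a median difference of 0.86 (quartiles 0.66 and 1.11) and the 28 Mrps genes one of 0.89 (quartiles 0.36 and 1.41). At least 2-fold higher in TRAP were 18 Mrpl genes (38.3%) and 12 Mrps genes (42.9%). Symbols do not always give the place of a protein: Mrps18a and Mrps30 are named for the small subunit but sit in the large one, and Mrps36 is now known as a component of the 2-oxoglutarate dehydrogenase complex. Mrps36 read 9.29 in TRAP and 7.76 in unbound.

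The largest difference was that of Mrpl42, a large subunit protein without a bacterial counterpart, with 10.15 in TRAP and 8.03 in unbound (4.36-fold). Mrps12, the counterpart of the bacterial protein at the decoding centre, read 10.03 in TRAP and 7.96 in unbound (4.20-fold). Mrps16, a conserved small subunit protein, read 10.34 in TRAP and 8.31 in unbound (4.08-fold). These 3 were the members past 4-fold, and each stood at or above percentile 99.6 of all named genes. Mrps11, on the platform of the small subunit, read 9.77 in TRAP and 7.92 in unbound (3.61-fold). Mrps28 read 9.94 and 8.35 (3.02-fold), and Mrps26 9.81 and 8.27 (2.93-fold).

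At the other end, 2 members were lower in TRAP as deposited. Mrpl47, the counterpart of bacterial L29 beside the exit tunnel, read 8.29 in TRAP and 8.39 in unbound, and its difference of -0.10 became positive in every other scaling (0.23 with array medians subtracted, 0.20 after quantile normalization, 0.06 with the loess trend removed). Mrpl51 read 9.87 and 10.09, a difference of -0.21 that was 0.12 with array medians subtracted and stayed negative under the other scalings. Its 2 probe sets disagreed: the brighter read 10.72 in TRAP and 10.37 in unbound, the dimmer 9.03 and 9.80. Mrps14 (8.50 in TRAP and 8.45 in unbound) and Mrps21 (10.60 and 10.53) had nearly equal values, and Mrps30 differed by 0.19.

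Among the proteins that serve the stalks, all 4 were higher in TRAP. Mrpl12, the flexible stalk protein that recruits translation factors, read 10.75 in TRAP and 9.29 in unbound (2.75-fold). Mrpl10, which anchors it, read 10.85 and 10.02, and Mrpl11, at the stalk base, 9.90 and 9.02. Mrpl1, of the stalk on the opposite side where tRNA leaves, had the smallest difference of the group, 0.30, with 9.10 in TRAP and 8.80 in unbound.

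Proteins around the exit tunnel spanned most of the family's range. Mrpl23 read 10.29 in TRAP and 8.44 in unbound (3.60-fold), and its 2 probe sets gave nearly the same difference, 1.86 and 1.83. Mrpl45, which attaches the ribosome to the inner membrane, read 10.22 and 9.21 (2.01-fold). Mrpl17, Mrpl22 and Mrpl24 differed by 0.86, 0.77 and 0.71, and Mrpl47, described above, by -0.10.

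The central protuberance group, which touches the small subunit and tRNA, had a median of 0.85 over 6 genes. Mrpl46 led with 9.63 in TRAP and 8.12 in unbound (2.85-fold), followed by Mrpl40 with 10.68 and 9.64 (2.06-fold). Mrpl52, Mrpl18 and Mrpl38 differed by 0.85, 0.84 and 0.71, and Mrpl48 by 0.24.

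Other conserved large subunit proteins are given as single values. Mrpl2 read 9.84 in TRAP and 8.64 in unbound (2.30-fold), Mrpl4 10.39 and 9.31 (2.12-fold), and Mrpl3 9.77 and 9.07 (1.62-fold). Mrpl34 differed by 1.27, Mrpl36 by 1.18, Mrpl35 by 0.79 and Mrpl32 by 0.50. Of the members with enzyme folds, Mrpl44, related to RNase III, read 8.49 in TRAP and 7.97 in unbound, and Mrpl58, a peptidyl-tRNA hydrolase that rescues stalled ribosomes, 10.81 and 10.17 (1.55-fold).

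Mammals have 3 paralogues of the bacterial S18 protein, and each was at least 2-fold higher in TRAP. Mrps18a, the paralogue in the large subunit, read 10.93 in TRAP and 9.10 in unbound (3.56-fold). Mrps18b read 10.09 and 8.83 (2.40-fold), and Mrps18c read 9.85 and 8.74 (2.16-fold). Each was measured by its own single probe set.

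Proteins of bacterial descent and mitochondria-specific proteins were both higher in TRAP. The 42 measured genes listed as counterparts of bacterial proteins had a median of 0.86, with 16 at least 2-fold higher in TRAP. The 28 mitochondria-specific proteins had a median of 0.70, with 9 at least 2-fold higher, among them Mrpl37 (11.03 in TRAP and 9.66 in unbound) and Mrps34 (10.16 and 8.79). The 5 members placed in neither class (Mrpl55, Mrps18a, Mrps18b, Mrps28 and Mrps36) differed by 1.26 to 1.83 and enter neither median. Mrps18a and Mrps18b are paralogues of the bacterial S18 protein, so the median of 0.86 leaves out at least these genes of bacterial descent. The descent of Mrpl55, Mrps28 and Mrps36 was not examined, so the list of bacterial counterparts may lack others.

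Named pseudogenes and paired probe sets may bear on single values. RefSeq lists 6 pseudogenes named after Mrpl23, Mrpl27, Mrpl48 and Mrps36. A probe set for these genes may also read a copy, which was not tested. Of the 6 members with 2 probe sets, 5 had both in the same direction, and in these 5 the probe sets were at most 0.26 apart. For Mrpl51 the gap was 1.11. Probe sets of a gene share the same RNA and the same 2 arrays, so these gaps do not measure the error of a difference. With 1 array per fraction the order of members by difference is not established.

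**Figure D2:**
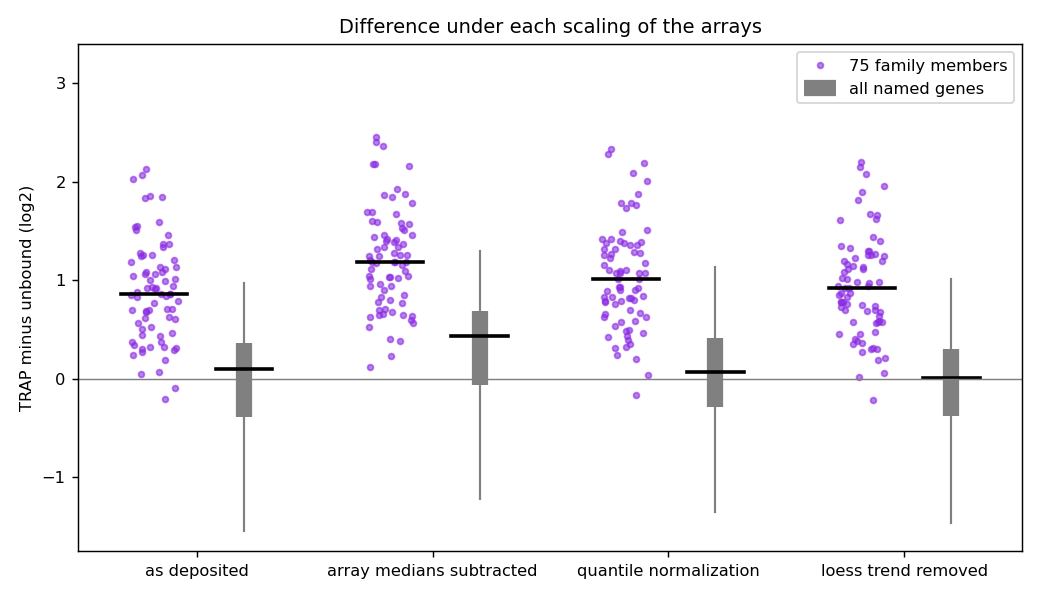
TRAP minus unbound (log2) for the 75 genes (points, black line at the median) and for all named genes (thick bar from the 25th to the 75th percentile, thin line from the 5th to the 95th, black line at the median) as deposited and under 3 other scalings of the arrays. The family's median lies above the 75th percentile of all named genes in each column.

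The direction held under the scalings tried. With array medians subtracted 75 of 75 members were higher in TRAP, 74 after quantile normalization and 74 with the loess trend removed, where all named genes gave 73.0%, 56.1% and 50.3%. The number at least 2-fold higher did depend on the scaling, at 51, 38 and 31 against 30 as deposited, with 10.1%, 6.67% and 5.2% of all named genes. The distance between the family's median and that of all named genes was 0.76 as deposited and with array medians subtracted, 0.95 after quantile normalization and 0.91 with the loess trend removed.

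Most members are short genes, and short genes as a class were higher in TRAP. Of the 75, 53 span under 10 kb of genome. Among 5957 protein-coding genes of such span, 74.1% were higher in TRAP, 5.37% at least 2-fold, with a median difference of 0.21. Of these 5957, only 2352 exceeded the level of 7.08 on either array, whereas all 53 short members did. The median levels of the class were 6.10 in TRAP and 5.92 in unbound, so its share higher in TRAP comes largely from genes of low level. The 53 short members had a median of 0.92 with 23 (43.4%) at least 2-fold higher in TRAP. The 22 longer members had a median of 0.70, compared with -0.03 over 12337 protein-coding genes spanning 10 kb or more. Across the 75 genes the difference was negatively related to span (Spearman rho -0.26), much as across 18294 protein-coding genes (-0.27). Genes are not independent replicates, and all points share the same 2 arrays.

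Proteins of the same ribosome that carry other names were also measured, and the 4 with a value were each higher in TRAP. Gadd45gip1, a large subunit protein, read 9.75 in TRAP and 8.20 in unbound (2.94-fold), and Chchd1, a small subunit protein, 8.90 and 7.85 (2.08-fold). Dap3, the GTP-binding protein of the small subunit, differed by 0.88, and Ptcd3, a pentatricopeptide protein near the mRNA entry, by 0.51. Oxa1l, the membrane insertase to which mitochondrial ribosomes dock, differed by 0.15. It is not a ribosomal protein, but it stands on this list of 5 genes in the plot by gene list, and again among the translation factors.

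The factors that work with this ribosome were mostly higher in TRAP, with lower medians than its proteins. Of 13 translation factors, 11 were higher in TRAP, 5 at least 2-fold, and the median was 0.68. The distance to the family's median depended on the scaling. It was 0.95 against 1.01 for the family after quantile normalization, and 0.83 against 0.92 with the loess trend removed. Tufm, the elongation factor that delivers tRNA, read 10.16 in TRAP and 8.95 in unbound (2.31-fold). Gfm1, which drives translocation, read 10.28 and 9.13, and Gfm2, which recycles ribosomes, 9.28 and 8.17. The lowest were Guf1, a back-translocating factor, at -0.48, and Mtrf1l, a release factor, at -0.39, both negative under every scaling tried.

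Of 19 mitochondrial aminoacyl-tRNA synthetases and amidotransferase subunits, 18 were higher in TRAP and 5 at least 2-fold, with a median of 0.59. Gatb and Qrsl1, subunits of the amidotransferase that makes glutaminyl-tRNA, differed by 1.31 and 1.16, and Yars2, the tyrosyl-tRNA synthetase, by 1.14. Gatc, the remaining amidotransferase subunit, read 11.62 in TRAP and 11.68 in unbound, a difference of -0.05 that was positive with array medians subtracted.

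Of 25 ribosome assembly factors, 21 were higher in TRAP and 3 at least 2-fold, with a median of 0.58. These were Rbfa, a small subunit maturation factor (9.49 in TRAP and 8.05 in unbound), the GTPase Mtg1 (8.36 and 7.12) and the ribosomal RNA methyltransferase Mrm3 (8.90 and 7.71). Ptcd1 had the lowest difference, -0.48, followed by Gtpbp10 at -0.27 and Mterf4 at -0.26. The last 2 turned positive with array medians subtracted or after quantile normalization. Of 17 genes for transcription and RNA processing in mitochondria, 16 were higher in TRAP and 2 at least 2-fold, Fastk by 1.27 and the mRNA-stabilising Slirp by 1.23, and the list's median was 0.49. Tfam, which packages mitochondrial DNA, read 8.21 on both arrays.

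**Figure D3:**
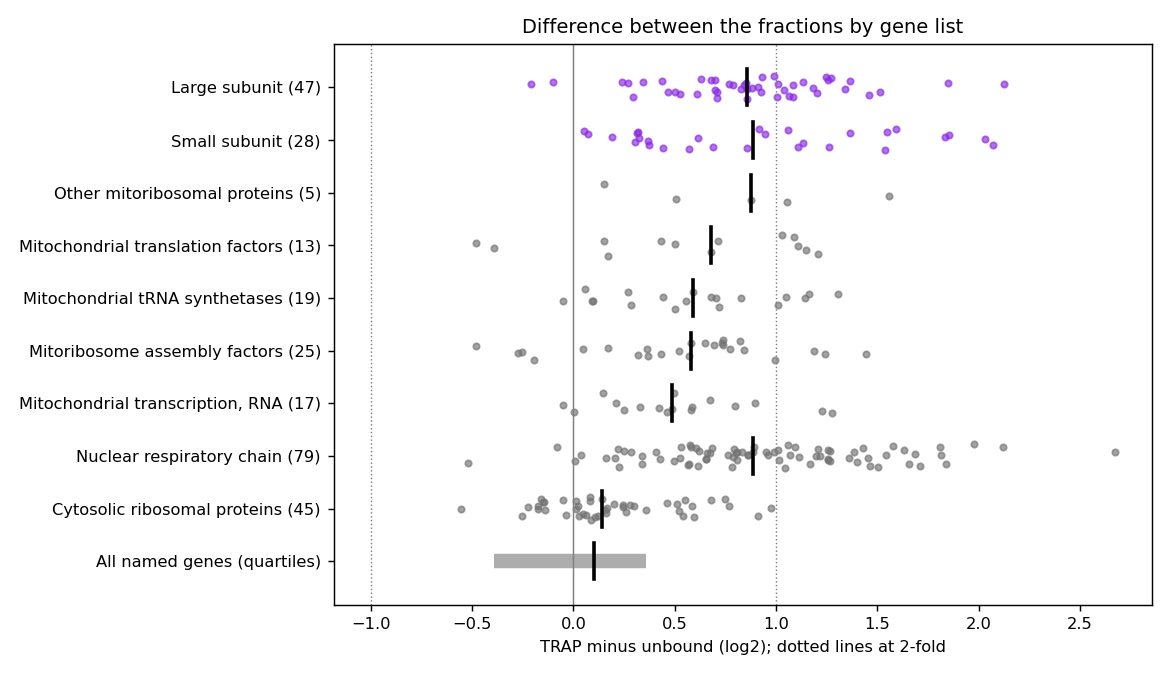
TRAP minus unbound (log2) for each gene of 9 lists, number of genes in parentheses, with a black line at the median and dotted lines at 2-fold. The bottom row gives the quartiles and median of all named genes. Medians run from 0.49 to 0.89 in the 8 mitochondrial lists and stand at 0.14 for cytosolic ribosomal proteins.

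In median as deposited, the mitochondrial ribosomal proteins lay close to the respiratory chain and apart from cytosolic ribosomal proteins. The 79 nuclear respiratory chain genes had a median of 0.89, with 77 higher in TRAP and 35 (44.3%) at least 2-fold. Their median was 0.86 against 1.01 for the family after quantile normalization, and 0.79 against 0.92 with the loess trend removed. The lists also differ in level, with median TRAP values of 11.49 for the respiratory chain and 9.92 for the family. Cox7a1, a cytochrome c oxidase subunit gene known from muscle, led at 2.67, ahead of Cox6b2 (2.12) and the complex I subunit Ndufb8 (1.97). The 45 cytosolic ribosomal protein genes named on single-gene probe sets include Rpl10a, the gene of the tagged protein. Only 40 of them exceeded the level of 7.08 on either array. The 45 genes had a median of 0.14, with 34 higher in TRAP and 0 at least 2-fold in either direction. Rps19 had the highest difference among them at 0.97, and Rplp0, of the cytosolic stalk, the lowest at -0.55. With 1 array per fraction the differences between lists were not tested.

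COX2, the single mitochondrially encoded gene with a value here, is translated on mitochondrial ribosomes, which do not carry the tag. It read 7.86 in TRAP and 12.32 in unbound, a difference of -4.46 and the lowest of all named genes. Whether the missing tag accounts for this difference was not tested.

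Some members share a start region with a neighbour on the opposite strand. RefSeq promoters were at hand for 66 of the 75 members, and 24 had a protein-coding gene starting divergently within 1 kb. The share of all protein-coding genes with such a partner is not given here, so the 24 cannot be called many or few. In 1 case both genes belong to the family: Mrpl46 and Mrps11 start 42 bases apart, around the short stretch printed above, and differed by 1.51 and 1.85. Of the 21 measured partners outside the family, 12 were higher in TRAP (57.1%), 1 at least 2-fold, and 3 were at least 2-fold higher in unbound. Their median was 0.11. The share of all named genes higher in TRAP was 57.6%, with a median of 0.10, and that of the 1340 measured protein-coding genes outside the family with a divergent partner was 51.9%, with a median of 0.04. Their 21 family members had a median of 0.86, and the member had the higher difference in 19 of 21 pairs.

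Single pairs, picked after their values were seen, show the range. Mrps12 starts 147 bases from Sars2, the mitochondrial seryl-tRNA synthetase gene, which read 9.20 in TRAP and 8.50 in unbound, against 10.03 and 7.96 for Mrps12. Mrpl57 differed by 0.44, and its partner Ska3, a kinetochore gene of dividing cells, by -2.36 (5.38 in TRAP and 7.74 in unbound). Mrpl51, the lowest member, starts 614 bases from Ncapd2, a condensin gene of dividing cells, which differed by -1.84. Mrpl47 starts 308 bases from the complex I gene Ndufb5, which read 11.20 in TRAP and 9.62 in unbound, a difference of 1.58 beside -0.10 for Mrpl47. Mrpl47 and Mrps27 (0.44, partner Ptcd2 at 0.58) were the members below their partner outside the family.

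**Figure D4:**
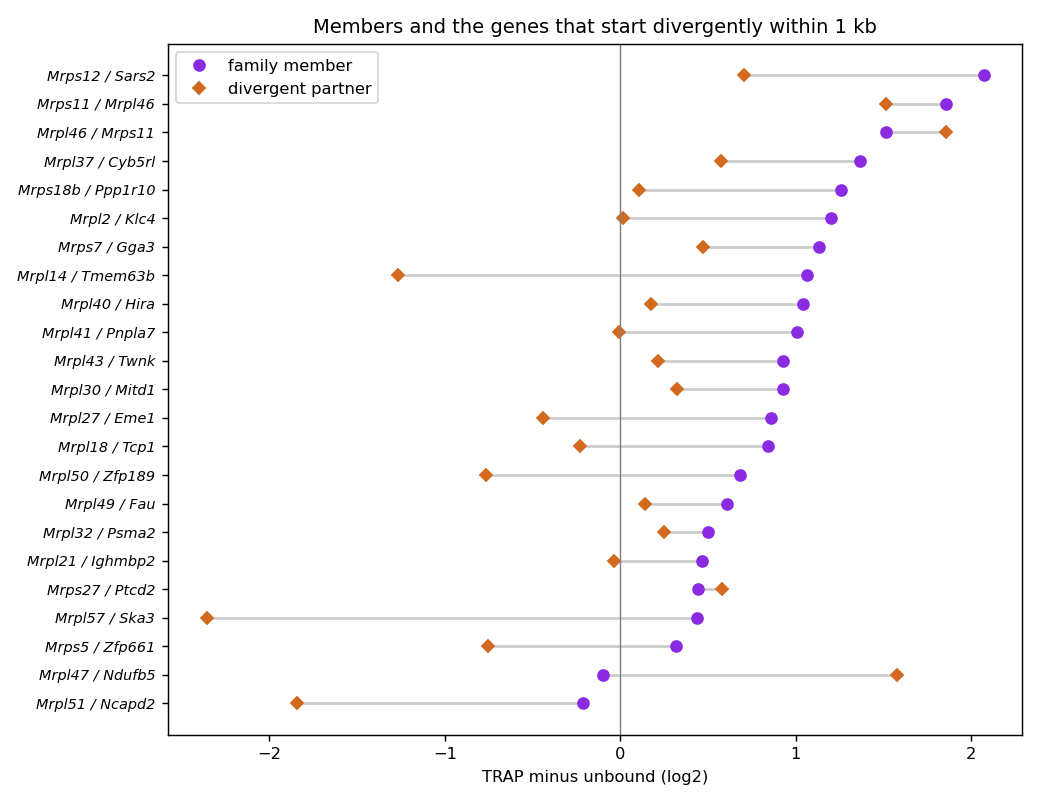
TRAP minus unbound (log2) for members (circles) and for the protein-coding gene that starts divergently within 1 kb (diamonds), sorted by the member's value. Mrpl46 and Mrps11 are partners of each other and appear in both roles. The circle lies right of the diamond in 19 of the 21 pairs with a partner outside the family.

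The promoters of members held 3 motifs more often than promoters at large. In windows of 250 bases before and 50 after the start, the ETS core had a match in 24 of 72 member promoters (33.3%), against 11.6% of 21263 promoters of protein-coding genes and 8.86% of all 32851 promoters. The YY1 motif had one in 21 (29.2%), against 6.37% and 6.05%, and the NRF1 motif in 14 (19.4%), against 8.57% and 6.23%. At least 1 of the 3 was present in 46 of 72 (63.9%), against 23.2% and 18.7%. A CCAAT box (CCAAT) was about as frequent in members as elsewhere, at 38.9% against 38.2% and 37.4%, and a GC box (GGGCGG) was found in 52.8% against 46.2% and 35.7%. Both strands were searched, and a match is a run of letters, not a shown binding site.

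Within the family, members with and without an ETS core, YY1 or NRF1 match had similar median differences. Members with an ETS core had a median of 0.85 (24 genes) and those without one 0.90 (42 genes). For YY1 the medians were 0.84 with a match and 0.91 without, and for NRF1 0.89 with and 0.86 without. The GC box set the medians farthest apart, 1.04 with a match and 0.79 without, 33 genes each. Among all protein-coding genes with a promoter and a value the order was opposite, -0.06 with a GC box (7955 genes) and 0.17 without (6837 genes). In the same set of genes, the median was 0.02 with an ETS core and 0.10 without. It was -0.07 with and 0.10 without an NRF1 match, and 0.03 and 0.09 for YY1. For the CCAAT box it was 0.08 and 0.10.

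**Figure D5:**
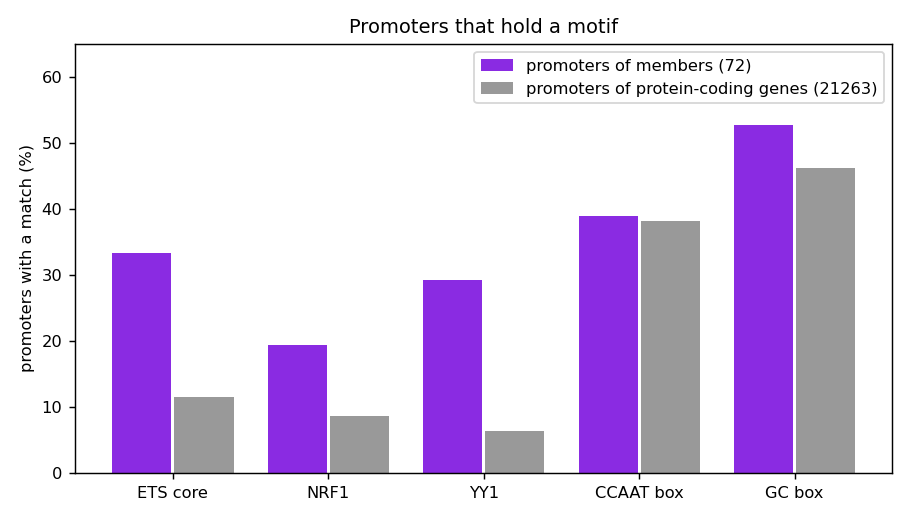
Share of promoters with at least 1 match, in percent, for 72 promoters of 66 members (left bar of each pair) and 21263 promoters of protein-coding genes (right bar). The ETS core, NRF1 and YY1 motifs stand higher in members, at 33.3%, 19.4% and 29.2%, and the CCAAT box does not.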

How the data were processed

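The authors deposited log2 values, 1 for each probe set on each array. Per the submitters' processing notes they used Affymetrix Power Tools. Its version and settings for background, normalization and summary are not stated in the labels, and the log base was inferred from the range of the values. Of 22097 probe sets, 20999 name 1 gene in the platform annotation, 91 name several and were left out (no member among them), and 1007 are unnamed here. Probe sets were averaged per gene (Python 3.11.15, pandas 2.3.3), which gave 19503 genes, and differences are TRAP minus unbound on the deposited scale. Symbols, gene spans and promoters come from RefSeq, GRCm38.p6. With 1 array per fraction no test was run, and genes are described by a size rule of 2-fold. Scanner signals and detection calls were not used, so the background of a probe set is unknown here, and the number of arrays limits the precision.

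Every family member could be named, and up to 3 genes from each end of the other lists, plus Pcp2 and Rpl10a. Divergent partners were found by position. The members, lists and settings were chosen with earlier results of these data known. Alternatives were 3 other scalings (array medians subtracted, quantile normalization, a loess trend with span 0.3 removed), 2 floors at the median of all values, the brightest probe set per gene, restriction by RefSeq name and type, and thresholds of 1.5-fold and 4-fold. Leaving out members with a named pseudogene was added after seeing the data. Scripts were tested on simulated data.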

Additional observations from a re-analysis of the deposited data

How the results depend on the processing

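The family's median difference of 0.86 was 1.19 with array medians subtracted, 1.01 after quantile normalization and 0.92 with the loess trend removed. For the large subunit (0.86 as deposited) the values under the first 2 of these were 1.19 and 1.01, and for the small subunit (0.89) 1.22 and 0.99. The count at least 2-fold higher in TRAP, 30 as deposited, was 51 with array medians subtracted. At a threshold of 1.5-fold it was 54 and at 4-fold it was 3. No member was at least 2-fold higher in unbound under any alternative. Both floors on level kept all 75 members, and restriction by RefSeq name and type also left all 75, so these changed no value. With the brightest probe set per gene 74 members were higher in TRAP, because Mrpl51 turned positive. Without the 4 members that have a named pseudogene, 28 of 71 were at least 2-fold higher in TRAP. No paired analysis was possible because each fraction has 1 array, and for the same reason no replicate could be left out. The table has no detection calls, so values near the median of the array have an unknown distance from background.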
